A study of Mus musculus with 16 samples.

Results

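Oct4 S151M and Oct6 M151S are POU transcription factors that carry each other's amino acid at the residue of the POU region given in their names, methionine in Oct4 S151M and serine in Oct6 M151S. Their binding sites in reprogramming fibroblasts were compared as the summits of ChIP-seq peaks, on chromosomes 1 to 19, X and Y. A site of one factor was taken as shared when a summit of the other lay within 100 bp. The members were 101151 summits of Oct4 S151M and 22791 of Oct6 M151S, 123942 of the 227116 summits in the series. Both samples were OG2 MEFs, mouse embryonic fibroblasts with an Oct4-GFP reporter, that had received retroviruses for Sox2, Klf4 (SK) and the mutant POU factor and were then moved to iCD1, a chemically defined reprogramming medium. Oct4 S151M was profiled on day 1 after the change of medium with an Oct4 antibody. Oct6 M151S was profiled with an Oct6 antibody, on day 1 by its title and on day 2 by its other label. Each factor had 1 library, so differences compare these libraries, and all intervals (95%, Wilson for shares and Newcombe for differences) cover counting error among sites only.

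POU factors bind DNA through a POU-specific domain and a homeodomain joined by a flexible linker, and can do so alone on the octamer, with Sox2 on composite SoxOct elements, or as homodimers on the palindromic MORE. Oct4 with Sox2 on SoxOct elements is a hallmark of pluripotent cells, while Oct6, encoded by Pou3f1, acts in glia, neural and epidermal cells. The exchanged residue lies at the contact between the subunits of the homodimer on MORE, and is a serine in wild-type Oct4 and a methionine in wild-type Oct6. The study exchanged it to ask how far this contact directs the choice of sites in chromatin.

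The lists were of unequal strength. The score of a summit, the −log10 of its MACS2 p-value, had a median of 19.5 and a lowest value of 4.03 in Oct4 S151M, and in Oct6 M151S a median of 3.74 and a lowest value of 2.3. The threshold of the Oct6 M151S list was therefore the looser one. The median fold enrichment over local background was 7.32 for Oct4 S151M and 2.42 for Oct6 M151S. A q-value under 0.05 was reached by 100% of Oct4 S151M summits and by 21.2% (20.7 to 21.7) of those of Oct6 M151S. The antibody, the yield, the labelled day and the mutant all differed between the libraries and cannot be told apart. Read depth was not known here.

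The sequence that set the libraries apart was MORE, a palindrome of the ATGCAT element. It was searched on both strands within 100 bp of each summit, with up to 1 mismatch and in its 12-bp form or with 1 more base in the middle. The 6 strings that were most often the best 12-bp MORE match of an Oct4 S151M site are shown on lines of their own, to show the sequence itself. They were picked for their frequency in Oct4 S151M, so their counts there are a description, and the Oct6 M151S list is the shorter one.
MORE string 1: ATACATATGCAT
MORE string 2: ATGCATATGCAT
MORE string 3: ATGCATATACAT
MORE string 4: ATACATATTCAT
MORE string 5: ATGAATATGCAT
MORE string 6: ATAAATATGCAT
The first string lay at 3431 Oct4 S151M sites (3.39%, 3.28 to 3.51) and at 3 Oct6 M151S sites (0.0132%, 0.00448 to 0.0387), with 0.0336% of 264737 genome windows of the same length holding it. The second, the perfect repeat, lay at 1319 Oct4 S151M sites and at 1 Oct6 M151S site (0.00869% of genome windows). The third lay at 1483 and 2 sites, the fourth at 1256 and 2, the fifth at 1170 and 6, and the last at 1183 and 4. In Oct6 M151S the 6 strings each lay at 0.00439% to 0.0263% of sites. Of the Oct4 S151M sites with these strings, 4, 1, 1, 2, 5 and 4 were shared, in the same order. Soft-masked repeats held the summit at 69.4%, 61.6%, 75.8%, 47.3%, 31.5% and 39.2% of the Oct4 S151M sites with the strings, in the same order, against 33.4% of all Oct4 S151M sites.

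The 4 strongest Oct4 S151M sites that held MORE and had no Oct6 M151S summit within 100 bp are given with 61 bases round the motif, on the plus strand of GRCm38 (mm10), 5′ to 3′, with the MORE match in capitals.
Sort1 intron, chr3:108304739-108304799: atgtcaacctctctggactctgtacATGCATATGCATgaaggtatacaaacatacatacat
Arrdc4 intron, chr7:68748142-68748202: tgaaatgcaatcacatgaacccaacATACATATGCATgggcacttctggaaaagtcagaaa
Ecpas upstream, chr4:58917385-58917445: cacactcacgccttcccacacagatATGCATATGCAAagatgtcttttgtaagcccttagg
Ptgfrn upstream, chr3:101162956-101163016: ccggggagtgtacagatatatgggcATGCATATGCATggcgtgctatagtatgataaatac
Their Oct4 S151M scores were 1234.9, 1227.9, 1183.7 and 1160.0, with fold enrichments of 163.1, 162.4, 157.6 and 154.1. The nearest Oct6 M151S summit lay 8402, 1071, 12459 and 53240 bp away. All 4 also had a summit of wild-type Oct4 at day 1, with scores of 219.8, 25.6, 61.7 and 23.3. Sort1 encodes a sorting receptor, Arrdc4 an arrestin-domain protein, and Ptgfrn a membrane protein that interacts with tetraspanins. The 2 strongest unshared Oct4 S151M sites without a POU motif by this search lay in introns of Chaf1a, which encodes a chromatin assembly subunit (score 1195.3), and Pkhd1, the polycystic kidney disease gene (score 1178.9). They still held 2 and 4 copies of ATGCAT within 100 bp, in arrangements that differ from MORE by more than the mismatch allowed. Both summits lay in soft-masked repeats, and the 61 bases round each are given.
Chaf1a intron, chr17:56054867-56054927: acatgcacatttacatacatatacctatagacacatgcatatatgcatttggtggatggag
Pkhd1 intron, chr1:20448976-20449036: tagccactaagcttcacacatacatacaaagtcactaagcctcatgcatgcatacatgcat

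Few sites were bound in both libraries, although more than at positions nearby. Of the Oct6 M151S sites, 1616 (7.09%, 6.76 to 7.43) had an Oct4 S151M summit within 100 bp, against 0.869% (0.788 to 0.958) of positions 10 kb to either side, a difference of 6.22 points (5.88 to 6.57). Seen from the other list, 1615 Oct4 S151M sites (1.60%, 1.52 to 1.68) had an Oct6 M151S summit, against 0.195% of positions 10 kb away, a difference of 1.40 points (1.32 to 1.48). With the Oct6 M151S summits that scored at least 4, the shares were 10.8% of 9861 Oct6 M151S sites and 1.05% of the Oct4 S151M sites. Of the 12930 Oct6 M151S sites under 4, 4.28% (3.94 to 4.64) were shared, 6.50 points (5.80 to 7.21) fewer than of those above. Counted as peaks that overlap by 1 bp, 15.3% (14.9 to 15.8) of Oct6 M151S peaks met an Oct4 S151M peak. With the 1000 strongest summits of each list the excess over positions 10 kb away was 0.900 points (0.433 to 1.70), and leaving out sites with a Sox2 summit it was 3.35 points (3.08 to 3.64) for the Oct6 M151S list. It was 14.1 points (13.1 to 15.2) with q-values under 0.05 in both lists and 38.8 points (32 to 45.9) with scores of at least 10 in both. For the Oct4 S151M list the last 3 of these settings gave 0.744, 0.675 and 0.0913 points. A sharing distance of 50 bp gave 3.37 points for Oct6 M151S and 0.76 for Oct4 S151M, and 250 bp gave 10.8 and 2.42.

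The 2 factors' summits at shared sites lay loosely around each other. Oct4 S151M summits fell 0 to 25 bp from an Oct6 M151S summit at 455 sites, 26 to 50 bp at 415, 51 to 75 bp at 393 and 76 to 100 bp at 353, with a median of 47 bp. Wild-type Oct4 at day 1, a protein measured with the same antibody as Oct4 S151M, was set against the Oct4 S151M summits as well. It had 3293, 1800, 858 and 471 summits at these distances from an Oct4 S151M summit, with a median of 25 bp. The share of shared sites within 25 bp of an Oct4 S151M summit was 28.2% (26 to 30.4) for Oct6 M151S and 51.3% (50.1 to 52.5) for Oct4 at day 1. For the 85 shared Oct6 M151S summits that scored at least 10 it was 36.5% (27 to 47.1), with a median of 35 bp. The part of summit strength in these distances was not tested. The 100 bp limit did not fall at a gap in the distances: 12 Oct6 M151S sites lay exactly 100 bp and 14 lay 102 bp from an Oct4 S151M summit, with median scores of 3.74 and 4.22. Across the 1616 pairs, the scores in the 2 libraries had a Spearman correlation of 0.08, given as a description over sites of 2 libraries.

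Over all sites, Oct4 S151M exceeded Oct6 M151S by 23.6 points (23.3 to 23.9) in MORE, by 4.33 points (4.11 to 4.54) in SoxOct and by 4.72 points (4.48 to 4.96) in the octamer. The MORE difference was 3.5 points (3.37 to 3.62) with 1 fewer mismatch allowed, 50.5 points (50 to 51) with 1 more and 58 points (54.8 to 61.1) with the 1000 strongest summits of each list. With the 1000 strongest summits of each list the SoxOct and octamer differences were 0.700 points (−0.881 to 2.3) and 0.800 points (−1.35 to 2.96), and with scores of at least 10 the octamer difference was −0.826 points (−5.5 to 2.2). The shared and unshared sites also held different motifs. MORE lay at 24.7% (24.4 to 25) of unshared Oct4 S151M sites but at 8.24% (6.99 to 9.68) of shared ones, which is −16.5 points (−17.8 to −15) for shared minus unshared. SoxOct, the composite element of Sox2 with Oct4, was at 5.81% (5.67 to 5.96) of unshared and 8.98% (7.68 to 10.5) of shared Oct4 S151M sites, 3.16 points higher (1.86 to 4.66). The octamer ATGCAAAT was at 6.77% (6.61 to 6.93) and 10.1% (8.72 to 11.7). For the AP-1 element TGANTCA, bound by Fos and Jun proteins in fibroblast enhancers, the shares were 12.3% (12.1 to 12.5) and 22.2% (20.3 to 24.3). A single Sox element (CCATTGT or CCTTTGT) was at 9.95% (9.76 to 10.1) and 17.9% (16.1 to 19.8). The genome windows held MORE at 0.778%, SoxOct at 1.07%, the octamer at 1.78%, AP-1 at 6.01% and the Sox element at 7.69%. The SoxOct difference between shared and unshared Oct4 S151M sites turned in sign, with intervals that include 0, when both lists were kept to scores of at least 10 (−2.05 points, −4.65 to 4.98) or to their 1000 strongest summits (−3.63 points, −4.99 to 26.3).

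**Figure D1:**
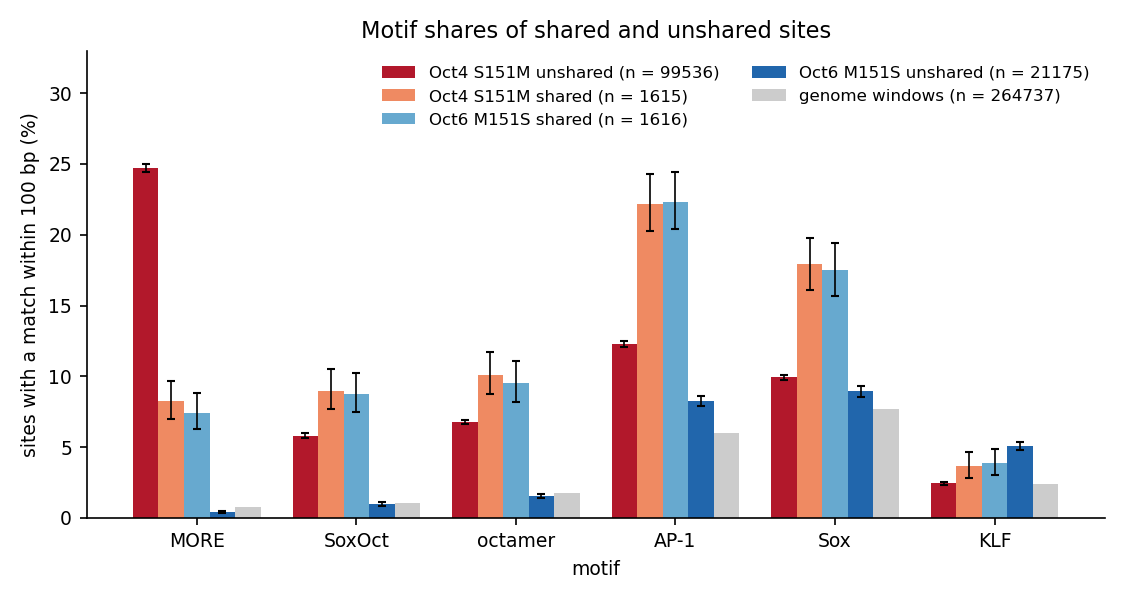
Share of sites (%) with a motif match within 100 bp of the summit, for shared and unshared sites of each library and for evenly spaced genome windows, with Wilson 95% intervals. MORE stands at 24.7% in unshared Oct4 S151M sites and 8.24% in shared ones, while AP-1, Sox, octamer and SoxOct stand higher in the shared sites of either library.

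On the Oct6 M151S side, the POU motifs had higher shares in the shared sites. Unshared were 82 of the 202 sites with MORE, 208 of the 349 with SoxOct and 324 of the 478 with the octamer. Of all 22791 sites, 21175 were unshared. Shared sites are those that met an Oct4 S151M summit, a list with MORE at 24.5%, SoxOct at 5.86% and the octamer at 6.82% of its sites, so the choice of sites by itself bears on these shares, and on how those of unshared sites stand against flanks that were not so chosen. MORE lay at 7.43% (6.25 to 8.81) of the 1616 shared sites and at 0.387% (0.312 to 0.480) of the 21175 unshared sites, whose flanks 2 kb away held it at 0.699%. The difference was 7.04 points (5.85 to 8.42). SoxOct lay at 8.73% (7.45 to 10.2) and 0.982% (0.858 to 1.12), 7.74 points apart (6.46 to 9.22), and the sign turned to −2.93 points (−4.17 to 27) among the 1000 strongest of each list. The octamer lay at 9.53% (8.19 to 11.1) and 1.53% (1.37 to 1.70), the latter beside 1.55% in the flanks. AP-1 lay at 22.3% (20.4 to 24.4) and 8.24% (7.88 to 8.62), so the shared sites were 14.1 points (12.1 to 16.2) higher, and the flanks of the unshared sites held it at 6.21%. Over all Oct6 M151S sites MORE exceeded its flanks by 0.189 points (0.0493 to 0.338) and SoxOct by 0.632 points (0.455 to 0.819). The former interval included 0 without sites that had a Sox2 summit (0.135 points) and with windows of 50 bp to each side (0.0746 points). Of the Oct6 M151S sites with an exact MORE, 19 of 20 were shared, as were 55.5% (48.2 to 62.5) of 182 with 1 mismatch, 27.7% (25.5 to 29.9) of 1569 with 2 and 5.05% (4.76 to 5.36) of the other 21020.

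Seen from the Oct4 S151M list, sites close to MORE were shared less often than the others, with no order between exact MORE and 1 mismatch beyond counting error. MORE lay at 202 Oct6 M151S sites and at 24734 Oct4 S151M sites. This difference by itself bears on how many of the latter could be shared. Exact MORE lay at 3625 Oct4 S151M sites and 1 mismatch at 21109, of which 0.579% (0.379 to 0.884) and 0.531% (0.441 to 0.638) were shared. At 2 mismatches (34208 sites) the share was 1.36% (1.24 to 1.48), and at 3 or more (42209 sites) it was 2.41% (2.27 to 2.56). The median scores ran the other way, with 47.1 for exact MORE and 15.2 for 3 or more mismatches. Over all Oct4 S151M sites, however, sharing was higher at higher scores, with 1.12% (0.986 to 1.28) in the lowest quintile of the score and 2.26% (2.07 to 2.48) in the highest. Among 7-base words, ATGCATA was in 29.9% of unshared Oct4 S151M sites within 50 bp, 12.4% of shared Oct4 S151M sites, 8.42% of shared Oct6 M151S sites and 1.19% of unshared ones. The word TGCATAA, by contrast, was in 11.6% of unshared and 11.4% of shared Oct4 S151M sites. In Oct6 M151S it was in 7.86% of shared and 1.40% of unshared sites.

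Sorted by motif, Oct4 S151M sites with MORE and no SoxOct were shared at 0.514% (0.431 to 0.613, n = 23912), beside 0.153% at positions 10 kb away. Sites with SoxOct and no MORE were shared at 2.64% (2.24 to 3.12, n = 5110), sites with the octamer as their one POU motif at 2.83% (2.37 to 3.38, n = 4133), and sites with no POU motif at 1.83% (1.73 to 1.94, n = 67174). The 34208 sites that were 2 mismatches from MORE do not count as MORE here. Those of them without SoxOct or the octamer fall in the class with no POU motif. The class with MORE lay 1.32 points (−1.45 to −1.18 as a difference) under the class without a POU motif, SoxOct 0.811 points above it (0.392 to 1.30) and the octamer 1.00 points above it (0.525 to 1.56). In 822 sites with both MORE and SoxOct, 1.22% (0.662 to 2.22) were shared. A sharing distance of 250 bp gave 1.01% for MORE, 4.66% for SoxOct, 4.50% for the octamer and 3.40% for no POU motif. With Oct6 M151S scores of at least 4, the shares were 0.372%, 1.82%, 1.89% and 1.19%. Seen from the Oct6 M151S list, 57.7% (50.5 to 64.5) of its sites with MORE and no SoxOct were shared. The shares there were 38.7% for SoxOct without MORE, 27.6% for the octamer alone and 5.74% for no POU motif.

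The low sharing of MORE sites was seen in each quintile of the Oct4 S151M scores. The small number of Oct6 M151S sites with MORE bears on all of these shares. From the lowest to the highest quintile, MORE sites were shared at 0.200%, 0.352%, 0.135%, 0.265% and 1.10%, and sites without a POU motif at 1.24%, 1.43%, 1.80%, 2.36% and 2.67%. The differences between these classes were −1.04, −1.08, −1.66, −2.10 and −1.57 points, each with an interval under 0. SoxOct sites went from 0.892% (0.470 to 1.69) in the lowest quintile to 5.25% (3.96 to 6.93) in the highest. Repeats were more frequent at the MORE class, with 39.8% (39.2 to 40.5) of summits soft-masked against 32.6% (32.2 to 32.9) for no POU motif, 26.3% (24.9 to 27.6) for the octamer and 20.4% (19.3 to 21.5) for SoxOct. Outside repeats, 0.688% (0.566 to 0.837) of MORE sites were shared and 2.34% (2.21 to 2.48) of those without a POU motif, and inside repeats 0.252% (0.169 to 0.375) and 0.777% (0.669 to 0.902). The part of repeats in these shares was not tested further.

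**Figure D2:**
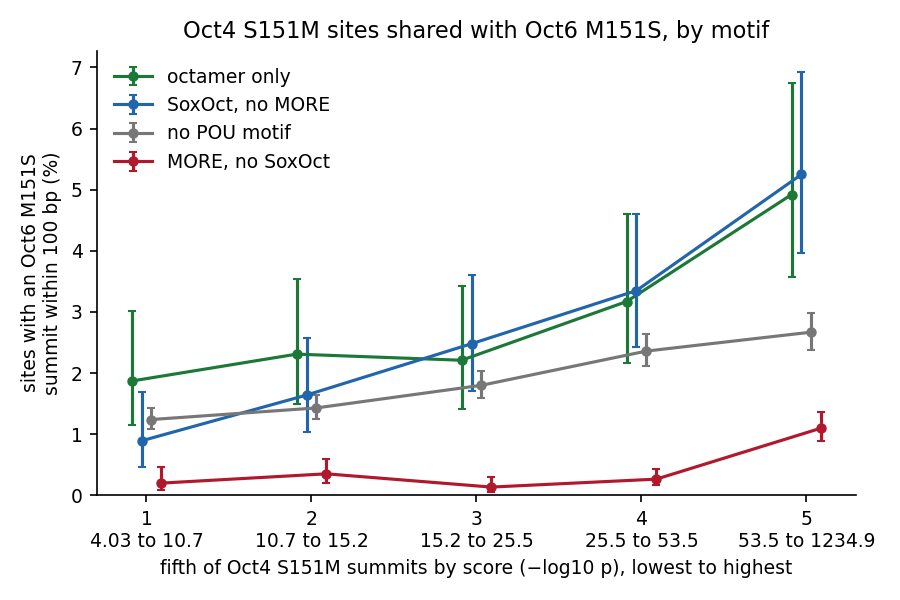
Share of Oct4 S151M sites (%) with an Oct6 M151S summit within 100 bp, by quintile of the Oct4 S151M score and by motif class, with Wilson 95% intervals. The MORE class lies between 0.135% and 1.10% and below the class with no POU motif in every quintile. MORE lay at 202 Oct6 M151S sites, which bears on these shares.

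Oct4 S151M sites that other POU libraries also bound were shared more often, whether they held MORE, SoxOct, the octamer alone or no POU motif. At Oct4 S151M sites with an Oct4 day 1 summit, MORE sites were shared at 6.23% (4.75 to 8.15, n = 786), SoxOct sites at 6.48% (5.13 to 8.17, n = 1018) and sites without a POU motif at 8.76% (7.94 to 9.65, n = 4201). MORE minus SoxOct was −0.249 points there (−2.49 to 2.09), an interval that includes 0, while MORE minus no POU motif was −2.53 points (−4.26 to −0.446). At Oct4 S151M sites without an Oct4 day 1 summit, MORE sites were shared at 0.320% (0.255 to 0.401, n = 23126) and SoxOct sites at 1.69% (1.33 to 2.13, n = 4092), with −1.37 points (−1.81 to −1.01) between them. At sites with an Oct4defSox2 day 1 summit, MORE sites were shared at 3.55% (2.82 to 4.46, n = 1973) and SoxOct sites at 6.27% (5.17 to 7.57, n = 1580), −2.72 points between them (−4.21 to −1.3), against −0.778 points (−1.17 to −0.486) at sites without one. At sites with a summit of any Sox2 library, MORE minus SoxOct was −0.949 points (−4.45 to 3.05) and MORE minus no POU motif −3.17 points (−5.8 to 0.405). For Oct4defSox2 the MORE minus SoxOct intervals with and without a summit did not overlap. MORE minus no POU motif was −4.27 points (−5.2 to −3.21) with an Oct4defSox2 summit and −0.682 points (−0.781 to −0.577) without one. For Oct4 day 1 and for Sox2 the intervals with and without a summit overlapped. The differences between the gaps were not tested. MORE and Oct4 occupancy were not spread evenly, since 3.29% (3.07 to 3.52) of MORE sites but 19.9% (18.8 to 21) of SoxOct sites had an Oct4 day 1 summit.

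At sites that held the 12-bp MORE, the summits of Oct4 S151M lay close to it, whereas those of Oct6 M151S did not. At shared sites, the centre of the 12-bp MORE match lay a median of 11 bp from the Oct4 S151M summit, with 78.0% (67.9 to 85.6) of 82 matches within 25 bp. Around the Oct6 M151S summits of shared sites the median was 48.5 bp, with 18.7% (11.5 to 28.9) of 75 matches within 25 bp. In the flanks of Oct6 M151S sites 28.6% (23.1 to 34.8) lay within 25 bp. For MORE with 1 more base, 77.4% (64.5 to 86.5) of 53 matches at shared Oct4 S151M sites lay within 25 bp. At shared Oct6 M151S sites it was 31.9% (20.4 to 46.2) of 47, beside 30.1% (21.7 to 40.1) in the flanks. In unshared Oct4 S151M sites 64.7% (64.0 to 65.4) of 18129 matches lay within 25 bp. SoxOct matches lay within 25 bp of the summit at 44.8% (37.0 to 53.0) of shared Oct4 S151M sites and 31.2% (24.1 to 39.3) of shared Oct6 M151S sites, beside 26.6% and 30.2% in the flanks of the 2 lists. AP-1 matches lay within 25 bp at 32.6% (27.9 to 37.6) and 32.4% (27.8 to 37.4) of shared sites of Oct4 S151M and Oct6 M151S, above the 26.8% (26.1 to 27.6) and 26.4% (24.8 to 28.1) in the flanks.

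**Figure D3:**
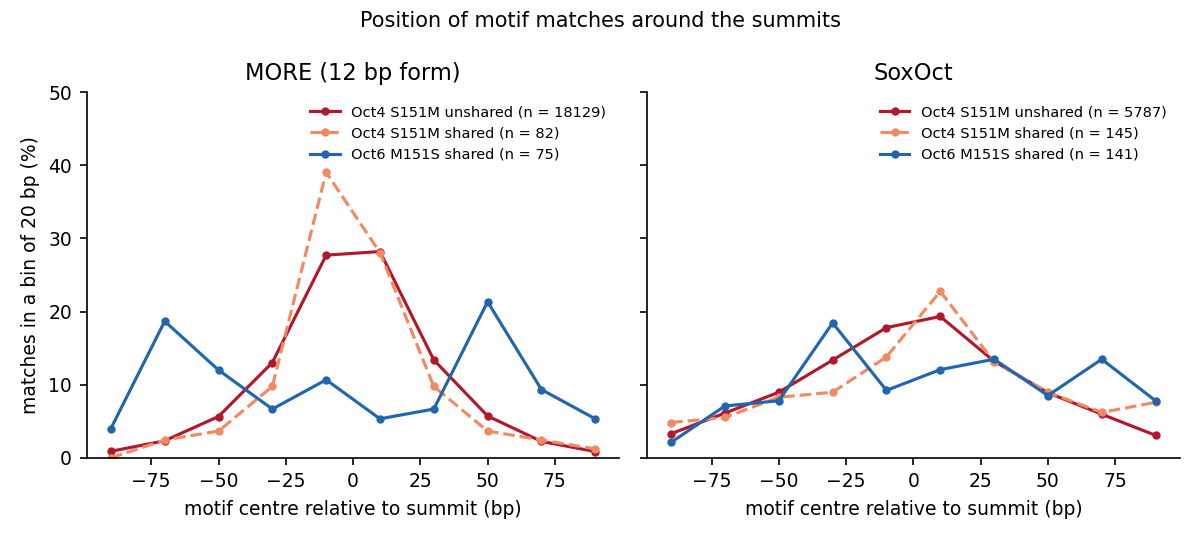
Position of motif matches relative to the summit (bp, bins of 20 bp), as a share (%) of the matches in each set, for the 12-bp MORE on the left and SoxOct on the right. MORE matches gather at the summits of Oct4 S151M, with 78.0% of those at shared sites within 25 bp, and are spread across the window around Oct6 M151S summits.

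The 4 shared sites with the highest Oct6 M151S scores are shown with capitals for the octamer (the first pair, on the minus and the plus strand) or the AP-1 element (the other pair), since none held MORE or SoxOct.
Slco6d1 upstream, chr1:98304998-98305058: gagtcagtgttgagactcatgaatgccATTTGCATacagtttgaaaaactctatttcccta
Cps1 downstream, chr1:67496257-67496317: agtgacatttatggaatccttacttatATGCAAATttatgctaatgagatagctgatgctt
Pxk intron, chr14:8099810-8099870: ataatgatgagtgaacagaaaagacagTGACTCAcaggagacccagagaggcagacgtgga
Eml6 intron, chr11:29968886-29968946: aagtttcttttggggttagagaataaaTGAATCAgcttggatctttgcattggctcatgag
The first, between genes and 116115 bp from the nearest coding start, scored 22.7 in Oct6 M151S and 33.7 in Oct4 S151M. It also had a summit of Oct4defSox2, an Oct4 mutated at its Sox2 interface, at day 1 (66.8) but none of wild-type Oct4. The second scored 21.3 and 99.5, and the third, in an intron of Pxk, 18.9 and 6.61. The fourth, in an intron of Eml6, scored 18.4 and 140.2, with summits 99 bp apart, just inside the limit. Oct4 had a day 1 summit at the last 3 of these sites.

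The shared sites with MORE and the highest Oct6 M151S scores are shown next, to set beside the unshared MORE sites above, with MORE in capitals.
Penk upstream, chr4:4249852-4249912: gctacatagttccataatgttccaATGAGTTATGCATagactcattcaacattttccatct
Tbc1d1 intron, chr5:64224814-64224874: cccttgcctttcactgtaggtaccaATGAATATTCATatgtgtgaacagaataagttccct
Shisa6 intron, chr11:66294397-66294457: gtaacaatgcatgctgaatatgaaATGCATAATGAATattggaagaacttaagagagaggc
Their scores were 13.8, 11.5 and 10.2 in Oct6 M151S and 118.0, 372.7 and 31.4 in Oct4 S151M. The Tbc1d1 site held an exact MORE built from ATGAAT and ATTCAT, and had summits of wild-type Oct4 at all 3 days (26.6, 40.9 and 20.5). Penk encodes an opioid peptide precursor, Tbc1d1 a regulator of glucose transporter trafficking, and Shisa6 an auxiliary subunit of glutamate receptors. All 3 sites had a summit of Oct4defSox2 at day 1, at 46.0, 197.0 and 8.64.

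The shared sites with SoxOct and no MORE are shown with SoxOct in capitals, the first on the minus strand and the others on the plus strand.
Nrxn3 intron, chr12:89770678-89770738: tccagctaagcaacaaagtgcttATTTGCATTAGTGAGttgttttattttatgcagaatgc
Ankfn1 intron, chr11:89579276-89579336: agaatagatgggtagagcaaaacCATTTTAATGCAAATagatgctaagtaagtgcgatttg
Dcbld2 intron, chr16:58433294-58433354: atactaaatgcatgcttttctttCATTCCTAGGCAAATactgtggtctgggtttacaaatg
Oct6 M151S scored 14.1, 12.1 and 11.4 here and Oct4 S151M 41.4, 80.5 and 154.2. Sox2 had a summit within 100 bp at the Ankfn1 site in Oct4-SK and Oct6-SK cells at day 1 (14.4 and 10.6) and at the Dcbld2 site in Oct6-SK cells (5.20), and none at the site in Nrxn3, a synaptic adhesion gene.

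The stronger an Oct6 M151S summit was, the more often Oct4 S151M bound there. Sharing was 3.84% (3.36 to 4.37) for scores under 3, 4.61% (4.16 to 5.12) from 3 to 4, 7.69% (7.11 to 8.30) from 4 to 6, 19.6% (17.9 to 21.4) from 6 to 10, and 44.3% (37.4 to 51.3) for the 192 summits at 10 or more. The octamer went from 1.75% to 7.81% and AP-1 from 7.65% to 17.7% between the lowest and the highest of these ranges. MORE went from 0.589% to 2.08%, of which the last stands on 4 sites. Promoters, within 1 kb of an annotated start, were at 10.2% in the lowest range and at 7.29% (4.39 to 11.9) in the highest.

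**Figure D4:**
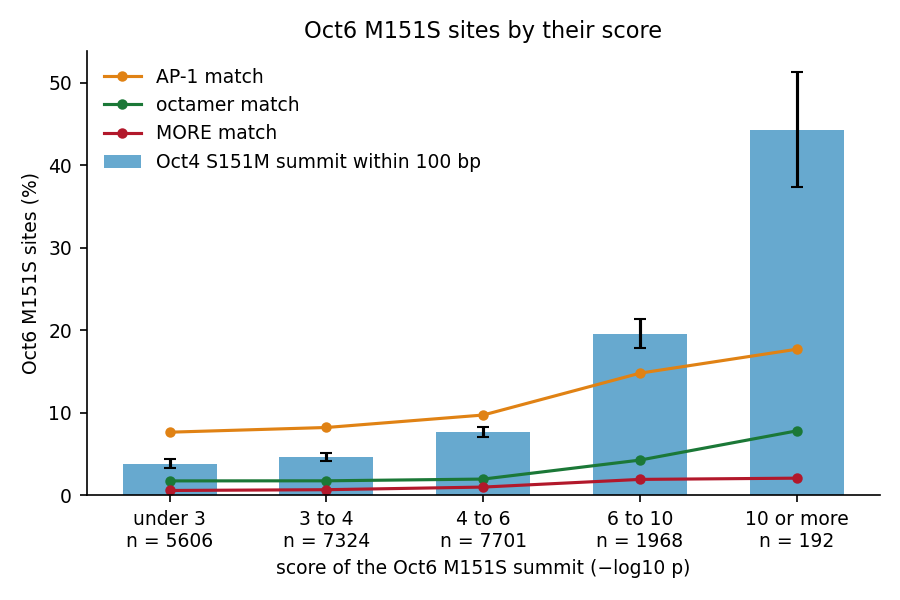
Oct6 M151S sites by score range (−log10 p), with bars for the share (%) that had an Oct4 S151M summit within 100 bp, Wilson 95% intervals on the bars, and lines for the share with AP-1, octamer or MORE. Sharing stands at 3.84% in the lowest range and 44.3% in the highest, and MORE stays at or under 2.08%.

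The unshared Oct6 M151S sites were of another kind of sequence. Their mean GC content was 46.2% ± 8.52 (SD, n = 21175 sites), against 38.5% ± 6.05 (n = 1616) in shared Oct6 M151S sites and 36.7% ± 6.72 (n = 99536) in unshared Oct4 S151M sites. Windows with over 60% GC made up 5.95% (5.64 to 6.28) of them, against 0.261% (0.231 to 0.295) of unshared Oct4 S151M sites. The element GGGNGNGGC, bound by KLF and Sp factors, was at 5.06% (4.78 to 5.37) of unshared Oct6 M151S sites, with 3.32% in their flanks and 2.43% (2.33 to 2.53) in unshared Oct4 S151M sites. Promoters held 10.2% (9.81 to 10.6) of all Oct6 M151S sites and 4.28% (4.16 to 4.41) of all Oct4 S151M sites, 5.92 points apart (5.51 to 6.33), which was 2.60 points (−0.0110 to 5.22) among the 1000 strongest of each. Among Oct4 S151M sites, 4.33% (3.44 to 5.44) of shared and 4.28% (4.16 to 4.41) of unshared ones lay at promoters, and the difference of 0.0545 points (−0.844 to 1.17) did not exceed counting error. Unshared Oct6 M151S sites had no POU motif in 97.3% (97.0 to 97.5) of cases, the flanks in 97.1%.

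Of the 4 strongest unshared Oct6 M151S sites, 2 lay just beyond the 100 bp limit from an Oct4 S151M summit and 1 lay at a promoter. Exons of the transduced genes are left out here. The first, in an intron of the kinase gene Cdkl3 at position 52011554 of chromosome 11, scored 152.6 with a fold enrichment of 21.8, far above the 22.7 of the strongest shared site, and had an Oct4 S151M summit 122 bp away. The third, upstream of Rc3h1, scored 19.3 and had one 111 bp away. The second, in the non-coding gene Gm12132, scored 20.1 with the nearest Oct4 S151M summit at 459 bp. The fourth, 312 bp from the start of Cavin3, which encodes a caveolar coat protein, scored 18.6 in a window with 68.7% GC. None of the 4 held MORE, SoxOct or the octamer. The strongest unshared Oct6 M151S sites with MORE and with SoxOct, in an intron of Msi2 and at a distance from genes on chromosome 6, scored 10.8 and 10.2, and are shown with the motif in capitals.
Msi2 intron, MORE, chr11:88419637-88419697: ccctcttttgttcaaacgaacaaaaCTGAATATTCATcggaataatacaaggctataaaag
Ankrd7 downstream, SoxOct on the minus strand, chr6:19558580-19558640: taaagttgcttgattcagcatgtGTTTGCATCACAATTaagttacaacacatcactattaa

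The shared sites were those that the other libraries of the series bound most often. Oct4defSox2 at day 1 had a summit at 59.0% (56.6 to 61.4) of shared and 12.6% (12.4 to 12.8) of unshared Oct4 S151M sites. Wild-type Oct4 at day 1 had one at 32.8% (30.6 to 35.1) and 5.91% (5.76 to 6.06), 26.9 points apart (24.7 to 29.2). Sox2 in Oct4-SK cells at day 1 had one at 24.4% (22.4 to 26.6) and 3.01% (2.91 to 3.12), 21.4 points apart (19.4 to 23.5). Sox2 in Oct6-SK cells at day 1 had one at 13% (11.5 to 14.7) and 0.757% (0.705 to 0.812). In any of the 6 Sox2 libraries, 41.5% (39.2 to 44.0) of shared sites and 5.56% (5.42 to 5.70) of unshared sites had a summit. Unshared Oct6 M151S sites had an Oct4 day 1 summit in 0.860% (0.744 to 0.993) and a summit of any Sox2 library in 5.11% (4.83 to 5.42) of cases. Without the sites that had a Sox2 summit, the Oct4 day 1 difference was 18.8 points. Repeats held the summit at 14.5% (12.9 to 16.3) of shared and 33.7% (33.4 to 34.0) of unshared Oct4 S151M sites.

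**Figure D5:**
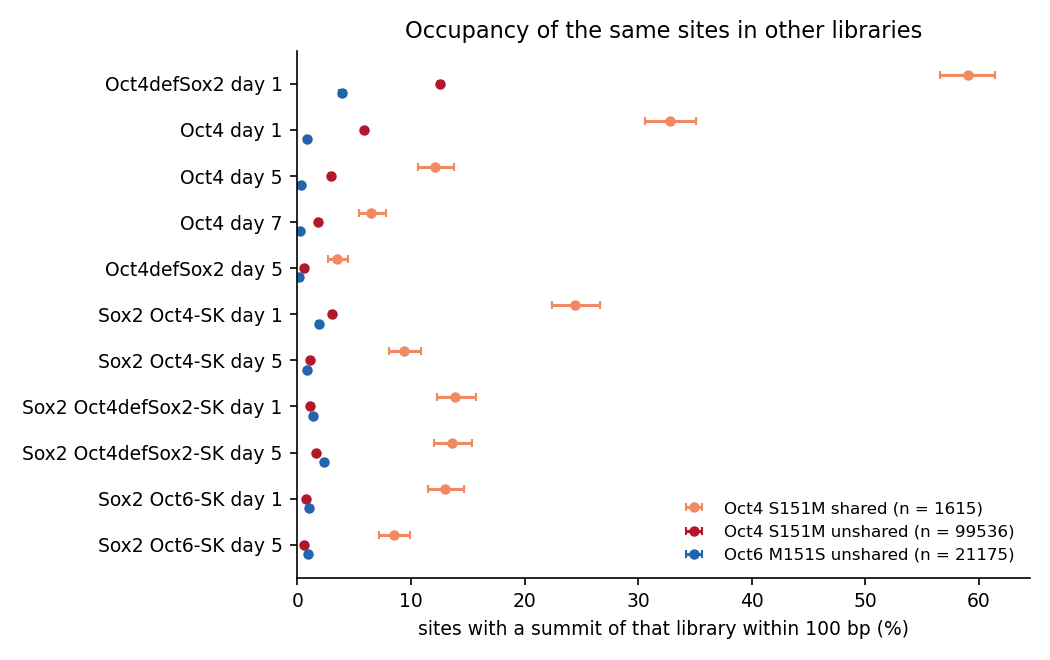
Share of sites (%) with a summit of each other ChIP library within 100 bp, for shared Oct4 S151M sites and for unshared sites of both libraries, with Wilson 95% intervals. Shared sites lie to the right in all 11 libraries, from 59.0% for Oct4defSox2 at day 1 to 3.47% for Oct4defSox2 at day 5.

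From the side of Sox2, its sites in Oct6-SK cells met Oct6 M151S more often than those in Oct4-SK cells did. Of the Sox2 summits in Oct6-SK cells at day 1, 13.1% (12 to 14.3, n = 3242) had an Oct6 M151S summit and 29.7% (28.2 to 31.3) an Oct4 S151M summit. In Oct4-SK cells these were 5.08% (4.74 to 5.44, n = 15219) and 22.3% (21.6 to 22.9). The lists differ in length, and the part of this in the shares was not tested.

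Near genes, both lists were counted over a panel of 87 genes of pluripotency, POU and Sox families, neural, epithelial and mesenchymal identity and fibroblast enhancer factors. Over all 21911 coding genes, 50.7% had an Oct4 S151M summit, 25.8% an Oct6 M151S summit and 15.8% both within 10 kb of a start, and 12.2% an Oct6 M151S summit that scored at least 4. Of 20 pluripotency genes, 15 had an Oct4 S151M and 6 an Oct6 M151S summit, the 6 being Pou5f1, Sox2, Klf2, Klf4, Tbx3 and Tet2. Of 15 POU and Sox genes, 9 had the former, 10 the latter and 7 both. Of 12 neural genes, 10, 7 and 6 did, Pax6, Nes, Neurog2, Zic2, Dll1 and Notch1 with both. Of 12 epithelial genes, 2 had an Oct4 S151M summit, 7 an Oct6 M151S summit and 2 both. Of 16 mesenchymal genes, 12 had an Oct4 S151M and 5 an Oct6 M151S summit, with both at Snai2, Zeb2, Vim and Cdh2. Of 12 AP-1 and fibroblast enhancer genes, 7, 6 and 5 did. Where both lists had a summit, the highest scores were 117.7 in Oct4 S151M and 5.31 in Oct6 M151S at Tet2, a DNA demethylase gene, and 48.7 and 3.69 at Tbx3. At the neural genes Neurog2, Nes and Pax6 they were 348.8 and 4.22, 23.7 and 5.31, and 20.3 and 4.73. At Zeb2, Vim and Cdh2 they were 220.8 and 3.74, 123.9 and 5.81, and 85.8 and 3.96. Scores grow with read depth, so the values of the libraries stand side by side here and carry no ranking between the factors. With Oct6 M151S scores of at least 4, the genes with an Oct6 M151S summit fell to 3 of the 20 pluripotency genes (Sox2, Klf4 and Tet2), 6 of the 15 POU and Sox genes, 6 of the 12 neural, 3 of the 12 epithelial, 3 of the 16 mesenchymal and 4 of the 12 AP-1 and fibroblast enhancer genes. The Oct6 M151S summits at Pou3f1 and Sox2 and the highest one at Klf4 lay in exons of these transduced genes. In most of the genes with both, the summits were apart, and a shared summit lay within 10 kb of a start at Pou5f1, Pou6f1, Sox21 and Runx2 alone.

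The shared sites at Pou5f1, which encodes Oct4, and at Sox21, which encodes a repressor of the SoxB family, are shown because each holds SoxOct, in capitals.
Pou5f1 upstream, minus strand, chr17:35504026-35504086: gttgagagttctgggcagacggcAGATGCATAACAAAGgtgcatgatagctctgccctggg
Sox21 downstream, plus strand, chr14:118230321-118230381: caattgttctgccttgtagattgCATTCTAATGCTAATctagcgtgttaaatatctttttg
The Pou5f1 site lay upstream of the gene, in the region of its distal enhancer, with an Oct4 S151M score of 147.6 and fold enrichment of 9.38. The Oct6 M151S summits 40 and 71 bp away from it, 2001 and 2032 bp upstream of the start, scored 2.89 and 2.56, both under 4, with fold enrichments of 1.43 and 1.39. The cells also carry a reporter under Pou5f1 regulatory sequence, and reads of the 2 cannot be told apart. The Sox21 site scored 150.5 in Oct4 S151M and 6.34 in Oct6 M151S, with summits 64 bp apart, and also had summits of Oct4 and of Sox2 in Oct4-SK cells at day 1. At Pou6f1, a POU gene of the nervous system, the summits lay 11 bp apart in an intron and scored 62.8 and 5.81. At Runx2, the regulator of bone formation, they lay 80 bp apart and scored 13 and 3.02.

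Exons of the transduced factors' genes were looked at separately, because the retroviruses carry these coding sequences, and reads from them cannot be told apart from those of the cells' own genes. Oct6 M151S had 2 summits in exons of Pou3f1, the highest at 344.4 with a fold enrichment of 39.4, and Oct4 S151M had none. Oct6 M151S also had 1 summit in exons of Sox2 (14.4) and 1 of Klf4 (13.3). Neither library had a summit in exons of Pou5f1, and Oct4 S151M had none in exons of any of the 4 genes.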

How the data were processed

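OG2 MEFs transduced with Sox2, Klf4 and a POU factor were profiled by ChIP-seq. The authors aligned paired-end reads to mm10 with Bowtie2 (2.2.5 in the submitters' processing notes), removed low-quality and duplicate reads with samtools, and called peaks and summits per library with MACS2. The deposited values are the −log10 p-value (the score) and −log10 q-value of each summit and its fold enrichment over local background, a ratio. Scores grow with depth and were ranked within a library only. Inputs and wild-type Oct6 ChIP were not analysed here.

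Motifs were searched as strings on both strands of GRCm38 within 100 bp of summits: MORE and MORE+1 (up to 1 mismatch), SoxOct (up to 2), the octamer, AP-1, Sox and KLF elements (0). Their background was taken 2 kb to either side and in windows every 10 kb. Gene positions came from GENCODE M21. The 17 differences were read as past counting error when the Newcombe 95% interval excluded 0. With 1 library per group no p-value was computed. Alternatives covered the sharing distance, score and q-value minimums, the strongest 1000 summits, 1 summit per peak, sites with Sox2, motif settings, promoter and background distances. Leaving out chromosomes X and Y was chosen after seeing the data. Named sites are the highest-scoring of each class (shared, with MORE, with SoxOct, unshared), outside chromosome 18 and the exons of the transduced factors, and panel genes were named where both lists had a summit. The members, lists and alternatives were chosen with earlier results of these data known. The procedure was tested on simulated data and run in Python (3.11.15), using scipy (1.17.1) and pandas (2.3.3).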

Additional observations from a re-analysis of the deposited data

How the results depend on the processing

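Of 169 repeats of the 17 differences, 147 kept their direction and their side of counting error. Most exceptions came from the short lists, with 192 Oct6 M151S summits at a score of at least 10. There, in points, the octamer difference between the libraries, 4.72 over all sites, was −0.826, the MORE, SoxOct and AP-1 differences within Oct6 M151S were 3.09, 3.09 and 1.18, the SoxOct and promoter differences within Oct4 S151M were −2.05 and −2.84, and the excess over flanks of Oct6 M151S sites was 0.781 for MORE and 1.04 for SoxOct. With the 1000 strongest of each list, the differences between the libraries were 0.700 for SoxOct (4.33 over all sites), 0.800 for the octamer and 2.60 for promoters, those within Oct6 M151S −2.93 for SoxOct and 15.0 for AP-1, and those within Oct4 S151M −15.5 for MORE and −3.63 for SoxOct. All of these had intervals that include 0, with fewer sites compared. The SoxOct difference within Oct4 S151M was 0.352 with 1 fewer mismatch. The excess of MORE over flanks in Oct6 M151S was 0.135 without sites that had a Sox2 summit and 0.0746 with 50 bp windows. The promoter difference within Oct4 S151M, 0.0545 over all sites, had no stable sign. It was 2.63 with the 1000 strongest, −0.184 with q-values under 0.05, −0.559 with 5 kb, −0.0208 without chromosomes X and Y and 1.37 (0.0239 to 3.10) without sites that had a Sox2 summit. For these last the cause was not tested. The sharing excess, the MORE difference between the libraries and the Oct4 and Sox2 occupancy differences kept their direction and their side in all alternatives tried for them. No paired analysis was possible because each group had 1 library.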

Other observations

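Chromosome X held 3.59% (3.48 to 3.71) of Oct4 S151M summits and 0.891% (0.777 to 1.02) of those of Oct6 M151S. In the other 11 libraries the share ran from 0.863% (Sox2 in Oct4-SK cells at day 5) to 2.70% (Oct4defSox2 at day 1), so Oct4 S151M stood above all of them. Chromosome 18 and exons of the transduced genes were left out of the ranking. Among the other Oct6 M151S sites the highest summit was the unshared one at Cdkl3, at 152.6. The second highest was the shared site upstream of Slco6d1, at 22.7. At the Cdkl3 site Oct4defSox2 scored 103.4 and Oct4 19 at day 1, with no POU motif found within 100 bp.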
